A study of Mus musculus with 45 samples.

Results

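Antigen presentation genes were followed across mouse heart development in 8 genes that were chosen by name: the class I heavy chains H2-K1 and H2-D1, their light chain B2m, the peptide transporter subunit Tap1, the class II chains H2-Aa, H2-Ab1 and H2-Eb1, and the class II invariant chain Cd74. All 8 were among 18193 genes measured on 45 Affymetrix arrays, 3 in each of 15 groups. Where several probe sets named a gene, the brightest on average across the 45 arrays stood for it. The groups were R1 embryonic stem cells (ESC, a mouse line), whole embryos of embryonic day 7.5 (E7.5), the heart tube of E8.5, and ventricles of 6 later stages, with the left taken apart from the right. The later stages were E9.5, E12.5, then E14.5, E18.5, postnatal day 3 (day 3) and the adult, whose age was not stated. The tissue came from wild-type CD1 mice, an outbred stock, with no treatment or allele named. Replicates were described as biological. Until E9.5 a replicate pooled 30 to 50 embryos or hearts. Pools were 10 to 20 hearts for E12.5 or E14.5 and 3 to 5 for E18.5, while a day 3 or adult replicate was 1 heart. The ESC arrays stood for a single cell line.

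Major histocompatibility complex (MHC) class I molecules sit on nearly all nucleated cells and show peptides made inside the cell to cytotoxic T cells. Proteasomes cut the peptides, TAP carries them into the endoplasmic reticulum, and a heavy chain with B2m binds them there. Class II molecules are made mainly by macrophages, dendritic cells and B cells, show peptides from engulfed material to helper T cells, and are held ready by the invariant chain until cathepsins degrade it. Interferon gamma raises both classes, and the heart holds resident macrophages from early in development.

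Promoters of 3 class I and 2 class II genes are shown because the genes of the 2 classes had different courses through development. Each is the RefSeq sequence of the 250 bases before the gene's start in GRCm38.p6, read 5′ to 3′ on the gene's strand. Of the 8 genes 6 were searched. Capitals mark matches, on either strand, to the inverted CCAAT box (ATTGG) of the Y element, a core of the X box (TAGNAAC), a kappa B site (GGGATTCCC) and an interferon response element. The latter was searched as GAAA repeated after 2 bases, and in a shorter form, GAANNGAAA, chosen after the sequences were seen. These windows are H2-K1 (chr17:34000348-34000597, minus strand), H2-D1 (chr17:35262844-35263093, plus strand), B2m (chr2:122147437-122147686, plus strand), H2-Aa (chr17:34287824-34288073, minus strand) and H2-Eb1 (chr17:34305617-34305866, plus strand).
H2-K1: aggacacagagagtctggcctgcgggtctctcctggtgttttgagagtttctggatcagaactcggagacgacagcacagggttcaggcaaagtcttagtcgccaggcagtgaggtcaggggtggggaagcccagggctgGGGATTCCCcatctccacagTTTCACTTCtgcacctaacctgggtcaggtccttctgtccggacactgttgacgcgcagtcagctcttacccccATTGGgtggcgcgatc
H2-D1: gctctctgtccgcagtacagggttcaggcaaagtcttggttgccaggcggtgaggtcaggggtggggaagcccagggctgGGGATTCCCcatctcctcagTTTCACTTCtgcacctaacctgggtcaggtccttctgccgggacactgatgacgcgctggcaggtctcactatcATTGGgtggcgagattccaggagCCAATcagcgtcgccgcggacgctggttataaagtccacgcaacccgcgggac
B2m: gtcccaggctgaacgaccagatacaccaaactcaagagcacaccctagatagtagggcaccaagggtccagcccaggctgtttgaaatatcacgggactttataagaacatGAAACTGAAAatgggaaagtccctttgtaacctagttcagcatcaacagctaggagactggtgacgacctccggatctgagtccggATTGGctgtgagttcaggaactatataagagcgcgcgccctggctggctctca
H2-Aa: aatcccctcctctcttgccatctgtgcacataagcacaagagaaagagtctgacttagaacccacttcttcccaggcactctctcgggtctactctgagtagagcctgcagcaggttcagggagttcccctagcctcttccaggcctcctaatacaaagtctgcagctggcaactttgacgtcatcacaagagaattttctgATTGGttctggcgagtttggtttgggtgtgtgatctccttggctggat
H2-Eb1: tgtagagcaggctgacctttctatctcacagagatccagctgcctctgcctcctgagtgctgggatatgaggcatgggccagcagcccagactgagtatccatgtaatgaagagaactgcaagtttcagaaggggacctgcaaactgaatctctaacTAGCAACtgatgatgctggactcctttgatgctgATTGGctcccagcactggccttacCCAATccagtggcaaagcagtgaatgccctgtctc
The ATTGG box was in 6 of 6 promoters, Tap1's included, and in 33.8% of all 32851 RefSeq mouse promoter windows of the same length. GGGATTCCC was in H2-K1 and H2-D1 and in 0.301% of all windows, and the short interferon form followed it in both genes and was in 6.31% of all windows. B2m held the long interferon form, found in 2.98% of all windows. Among these genes the X box core was matched in H2-Eb1, and in 9.93% of all windows. In a global alignment 170 of 250 bases were the same in the H2-K1 and H2-D1 windows, 68.0%, against 50.8% to 58.4% for the other pairs. A match is a run of letters and was not tested as a site.

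Values are log2 expression values per probe set (RMA), so that a difference of 1 is a 2-fold change, and levels of different genes are not compared. A difference is called where its adjusted p is under 0.05 in limma (two-sided moderated test, Benjamini-Hochberg over all 18193 genes). For steps between stages the left and right ventricles of 1 number were averaged first, so that each stage has n = 3, and left and right groups have n = 3 arrays each. Array medians lay between 5.35 and 5.46. As a reference for genes with no known part in the heart, 71 olfactory and vomeronasal receptor genes had group means with a median of 3.51 and a 95th percentile of 5.29. H2-Aa lay at or below that percentile in 13 of 15 groups, H2-Ab1 in 8 and Tap1 in 5, and the other 5 genes in 0. The H2-K1 and H2-D1 probe sets differed by -0.07 to 0.54 on the 45 arrays, with r = 0.998 across arrays, so their values cannot be assigned to 1 heavy chain gene with certainty. In 6 arrays a list of another tissue stood over 1.5 log2 units above the other replicates: visceral endoderm genes (also made by liver) in E8.5, E14.5 left and E18.5 left replicate 2, decidual and red cell genes in E7.5 replicate 2, trunk genes in E9.5 right replicate 1 and atrial genes in adult right replicate 3. Without these 6 arrays the same number of genes was called at E7.5, E8.5, E9.5 and in the adult steps.

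From ESC to E7.5 the 4 class I genes and Cd74 fell, and the class II chains did not pass the test. Over all genes 25.2% were called lower and 24.3% higher in this comparison, and the median change was -1.21 for the 8 genes and -0.02 for all genes. Tap1, a subunit of the transporter that supplies class I with peptides, read 7.57, 7.74 and 7.88 in ESC and 5.00, 5.13 and 5.58 at E7.5. It fell by 2.49 ± 0.13 (limma SE, adjusted p = 7.91e-14), and the groups did not overlap. Its E7.5 mean, 5.24, lay below the receptor genes' 5.29, so the difference can understate the change. The 3 other Tap1 probe sets, whose r with the one used was 0.2 to 0.24 over 45 arrays, differed by -0.20 to -0.00, none called. B2m, without which heavy chains do not reach the surface, read 11.13, 11.30 and 11.35 in ESC and 9.41, 9.71 and 9.89 at E7.5. It fell by 1.59 ± 0.10 (adjusted p = 5.17e-12). H2-K1 fell by 1.62 ± 0.28 (adjusted p = 3.73e-05), H2-D1 by 1.66 ± 0.29 (adjusted p = 3.19e-05) and Cd74 by 0.83 ± 0.16 (adjusted p = 0.000123). Without a call, H2-K1 1450534_x_at gave -0.21, and H2-D1 1451934_at, 1425614_x_at, 1427651_x_at and 1452544_x_at gave -0.18, 0.36, 0.36 and 0.14. The other probe sets of both heavy chains were called lower. ESC were a single cultured line and the embryos came from CD1 mice, so line, culture and stage cannot be told apart in this comparison. H2-Ab1 differed by -0.32 ± 0.17 (adjusted p = 0.126) and was called when only these 2 groups were fitted; its other probe sets fell by 0.60 and 0.41.

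Genes that supply class I with peptides moved alongside. Of 14 measured genes of this list (chosen with earlier results known), 10 fell and 2 rose from ESC to E7.5, with a median change of -1.73. Psmb8, a catalytic subunit of the immunoproteasome, fell by 4.76 ± 0.18 (limma SE), from 10.23 to 5.47 in stage means. Tapbp, which bridges the class I molecule and TAP, fell by 3.97 ± 0.11, the trimming peptidase Erap1 by 3.03 ± 0.13 and the immunoproteasome subunit Psmb9 by 2.62 ± 0.14. The chaperones Calr and Pdia3, which serve many other proteins, rose by 0.55 ± 0.08 and 0.87 ± 0.10. The adjusted p of each of these 6 genes lay between 1.53e-18 and 7.78e-06. Irf1, an interferon-induced activator of class I genes, fell by 3.11 ± 0.07 (adjusted p = 3.22e-20), from 11.03 to 7.91. Among 7 costimulation and surface turnover genes, 2 fell and 0 rose. They were Cd274 (PD-L1), which fell by 2.10 ± 0.12 (adjusted p = 3.62e-13), and Cd40, a receptor for helper T cell signals, by 0.35 ± 0.12 (adjusted p = 0.0183). All 9 visceral endoderm markers rose in the same comparison and all 8 pluripotency markers fell. Their part in the differences was not tested. In bulk samples fewer cells of a type and less RNA per cell cannot be told apart.

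**Figure D1:**
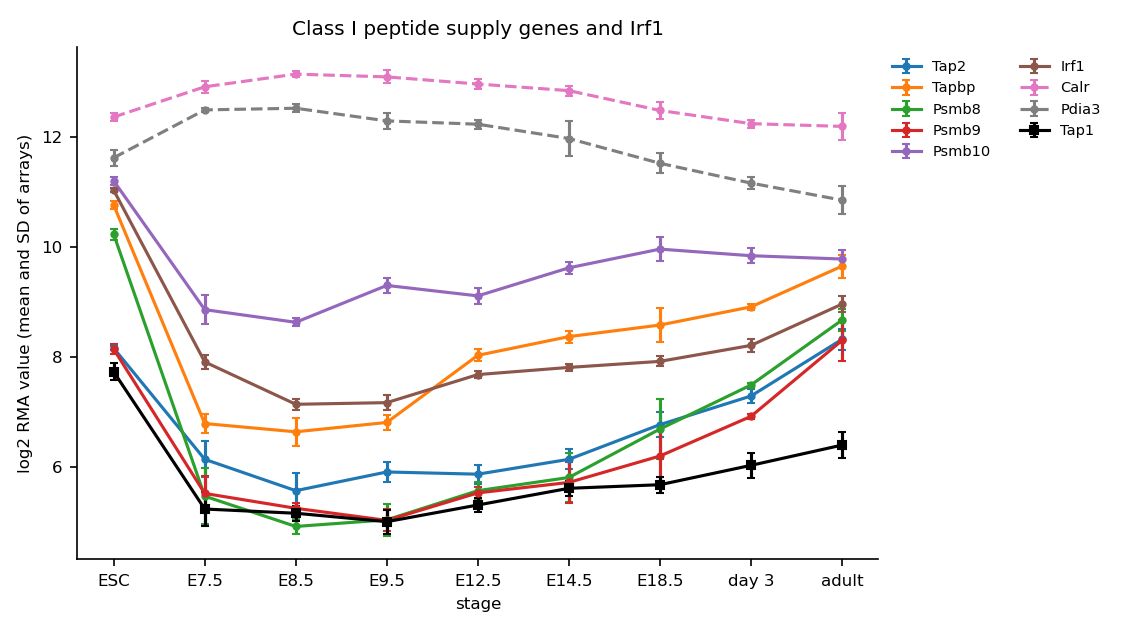
Stage means with the SD over arrays (3 to E8.5, 6 from E9.5) of class I peptide supply genes and Irf1, as log2 RMA values, by stage. Solid lines show Tap1, Tap2, Tapbp, the immunoproteasome genes and Irf1, which were high in ESC, low from E7.5 to E9.5 and higher again in the adult. Dashed lines show Calr and Pdia3, which ran the other way.

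In the probe sets used the heavy chains kept falling to the heart tube while B2m had turned. At E8.5 against E7.5, 28.1% of all genes were called lower and 20.4% higher. H2-D1 read 8.25, 8.88 and 9.18 at E7.5 and 7.48, 7.58 and 7.75 at E8.5, its lowest group, and fell by 1.17 ± 0.29 (limma SE, adjusted p = 0.00149). H2-K1 fell by 1.22 ± 0.28 (adjusted p = 0.000947), to 7.21, 7.38 and 7.39. B2m rose by 0.59 ± 0.10 (adjusted p = 3.47e-05), from its lowest group, with 10.22, 10.26 and 10.31 at E8.5. The other 5 genes were not called, with differences from -0.17 to 0.25. Of the 3 other H2-K1 probe sets 1 fell as well, by 0.42 ± 0.12, and 2 differed by -0.16 ± 0.12 and -0.10 ± 0.12, neither called. The H2-D1 probe set 1452544_x_at rose, by 0.73 ± 0.27 (adjusted p = 0.0378 over all probe sets). For H2-D1, 1425614_x_at, 1427651_x_at, 1426324_at, 1450170_x_at and 1451934_at gave 0.71, 0.34, -0.18, -0.02 and -0.01, none called. The remaining H2-D1 probe sets were called lower.

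From E8.5 to E12.5 the heavy chains and B2m rose at both steps in the probe sets used. Other H2-K1 and H2-D1 probe sets did not all do so. At E9.5 against E8.5, with 12.8% of all genes called higher and 14.1% lower, B2m rose by 0.82 ± 0.10, H2-K1 by 1.25 ± 0.28 and H2-D1 by 1.06 ± 0.29 (limma SE, adjusted p = 1.95e-06, 0.00173 and 0.00694). At E12.5 against E9.5, with 20.1% called higher and 18% lower, they rose by 0.95 ± 0.10, 1.06 ± 0.28 and 1.22 ± 0.29 (adjusted p = 1.03e-07, 0.0042 and 0.00138). H2-K1 read 8.07, 8.44 and 8.82 in left and 8.21, 8.55 and 9.39 in right ventricles at E9.5. At E12.5 it read 9.10, 9.86 and 9.90 in left and 9.01, 9.94 and 10.03 in right ventricles. From E8.5 to E9.5 the H2-K1 probe sets 1427746_x_at and 1425336_x_at fell, by 0.48 ± 0.12 and 0.32 ± 0.12 (limma over all probe sets, adjusted p = 0.0044 and 0.0498), and the mean of all H2-K1 probe sets, at 0.17, was not called (adjusted p = 0.31). Both rose from E9.5 to E12.5, by 0.51 ± 0.12 and 0.90 ± 0.12. In the probe set used E9.5 and E12.5 overlapped, and replicate 2 was the low array of both ventricles at E12.5. The H2-D1 probe sets 1425614_x_at, 1426324_at, 1427651_x_at, 1450170_x_at, 1451934_at and 1452544_x_at gave 0.50, 0.43, 0.25, -0.00, -0.14 and -0.15 at E9.5, none called. At E12.5 1425614_x_at, 1427651_x_at and 1452544_x_at gave -0.54, -0.33 and -0.36, 1451934_at -0.00 and 1426324_at 0.51, none called. The remaining H2-D1 probe sets were called higher at each step. Tap1 differed by 0.30 ± 0.13 at E12.5 (adjusted p = 0.0622). It was called, at 0.39, without the marked arrays, and when left and right arrays were treated as separate samples. Of the peptide supply list 6 of 14 rose and 2 fell at this step, led by Tapbp at 1.22 ± 0.11.

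Between E12.5 and E18.5 no change of the 8 genes was called. At E14.5 against E12.5, where 7.18% of all genes were called higher and 6.09% lower, 0 of 8 genes were called by limma and 1, Tap1, had an unadjusted p under 0.05, with differences from -0.06 to 0.31. Tap1, at 0.30 ± 0.13, was called when left and right arrays were treated as separate samples. At E18.5 against E14.5, where 11.8% were called higher and 18.7% lower, 0 of 8 were called and 0 had an unadjusted p under 0.05, with differences from -0.06 to 0.45. B2m had stage means of 12.03, 11.97 and 11.91 at the 3 stages (SD 0.10, 0.08 and 0.13, n = 6). The call of the heavy chains at E18.5 changed with the arrays used. With right ventricles alone H2-K1 rose by 1.09 and H2-D1 by 1.17, both called, and without the single array E18.5 left replicate 3 both were called, at 0.77 and 0.80. Without E14.5 left replicate 2, Cd74 was called at 0.42. Other probe sets were called higher at E18.5 for H2-D1 (1450170_x_at, 0.44), H2-Aa (1438858_x_at, 0.47) and H2-Ab1 (1450648_s_at, 0.51). The mean of all H2-D1 probe sets was called there too, at 0.45 (limma, adjusted p = 0.000186). At E14.5 the H2-K1 probe set 1427746_x_at was called higher, at 0.38.

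**Figure D2:**
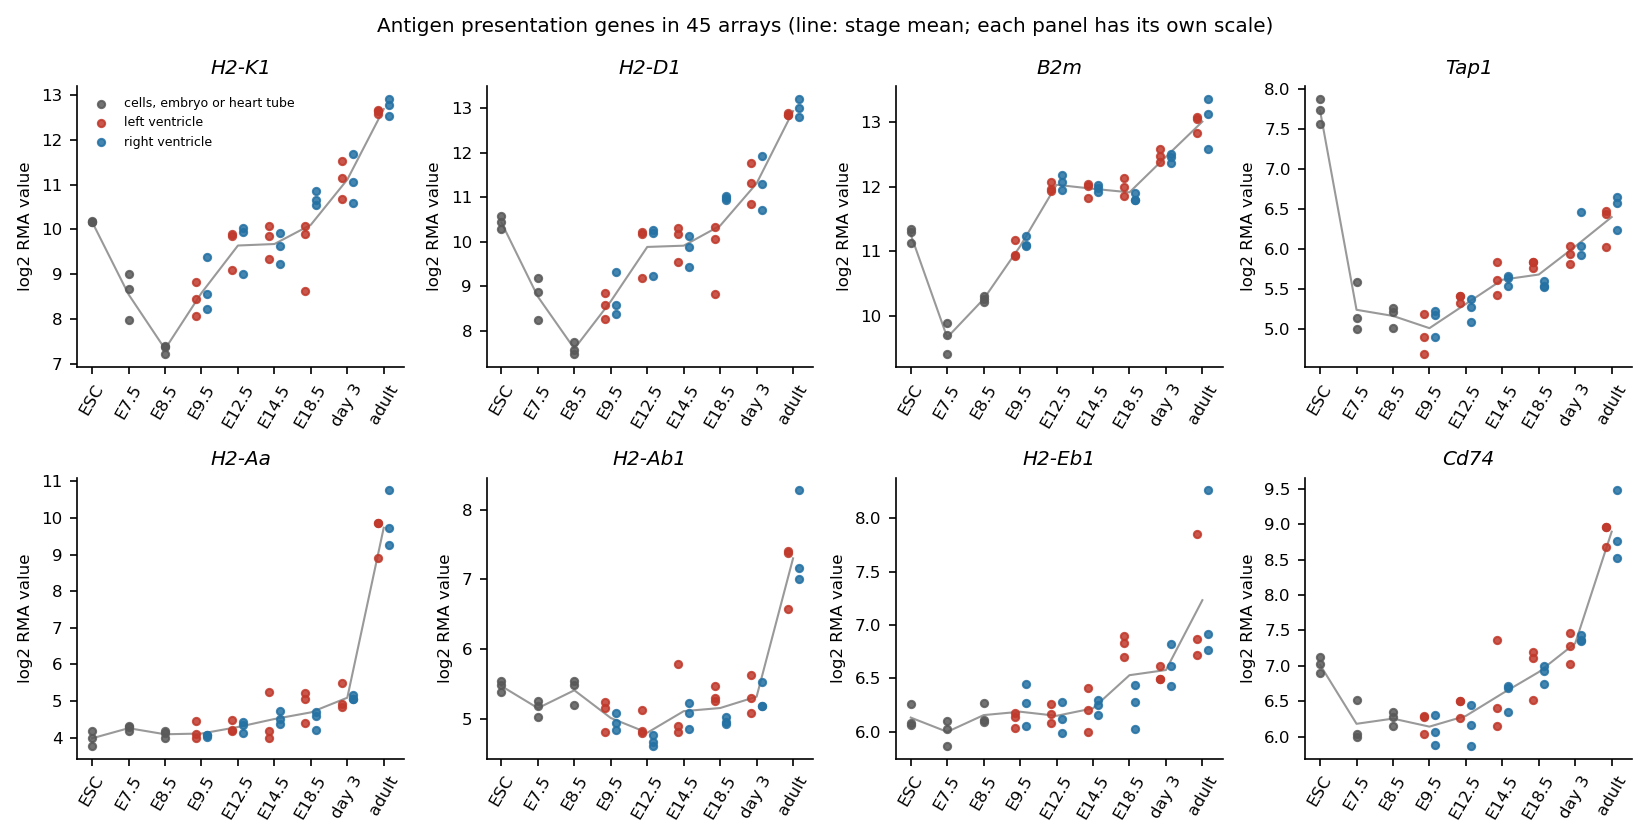
Log2 RMA value of each of the 8 genes on each of 45 arrays by stage, in grey for cells, embryos and heart tubes, red for left and blue for right ventricles, with a line through the stage means. The class I genes dip after ESC and are higher again in the adult. Their lowest stage mean is at E7.5 for B2m, E8.5 for H2-K1 and H2-D1, and E9.5 for Tap1. H2-Aa and H2-Ab1 stay low until the adult, where H2-Aa reads 8.92 to 10.76. Scales differ between panels.

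After birth the heavy chains and B2m rose again in the probe sets used. At day 3 against E18.5, with 9.94% of all genes called higher and 10.3% lower, B2m rose by 0.55 ± 0.10 (limma SE, adjusted p = 0.000415). H2-K1 rose by 1.01 ± 0.28 (adjusted p = 0.013) and H2-D1 by 0.95 ± 0.29 (adjusted p = 0.0202). The H2-D1 probe sets 1425614_x_at, 1427651_x_at, 1452544_x_at, 1451934_at and 1450170_x_at gave 1.44, 1.15, 0.62, 0.10 and -0.07, none called. H2-K1 1450534_x_at, at 0.30, was not called either. The remaining probe sets of both heavy chains were called higher. B2m read 11.79 to 12.14 at E18.5 and 12.37 to 12.59 at day 3 over 6 arrays each, without overlap. The heavy chain calls rested on the left ventricles: with right ventricles alone H2-K1 differed by 0.43 and H2-D1 by 0.33, neither called, and without E18.5 left replicate 3 by 0.67 and 0.60, neither called. The choice to leave out all 3 left ventricles, made after seeing the data, gave the same 0.43 and 0.33. H2-D1 was also not called without E18.5 left replicate 1 (0.84) or replicate 2 (0.79), the latter also the value without all marked arrays. Tap1 differed by 0.35 ± 0.13 (adjusted p = 0.0512) and Cd74 by 0.40 ± 0.16 (adjusted p = 0.0775). Both were called without the marked arrays, at 0.39 and 0.47, and with arrays as separate samples.

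In the adult all 8 genes rose over day 3, a step in which 22.3% of all genes were called higher and 26.4% lower. The median difference was 1.58 over the 8 genes and 0.03 over all genes. H2-Aa, the alpha chain of H2-A, rose most, by 4.64 ± 0.19 (limma SE, adjusted p = 8.16e-16). Its day 3 means, 5.08 and 5.10, lay below the receptor genes' 5.29, so the difference can understate the change. It read 4.84, 4.91 and 5.50 in left and 5.07, 5.07 and 5.16 in right ventricles at day 3. In the adult it read 8.92, 9.87 and 9.87 in left and 9.26, 9.74 and 10.76 in right ventricles, so that the stages lay over 3 log2 units apart. H2-Ab1, the partner beta chain, rose by 1.98 ± 0.17 (adjusted p = 6.33e-10) from a range of 5.08 to 5.63 to one of 6.58 to 8.28. Its 2 other probe sets rose by 2.76 ± 0.16 and 3.65 ± 0.15. Cd74 rose by 1.58 ± 0.16 (adjusted p = 1.3e-08), from 7.02 to 7.46 at day 3 to 8.53 to 9.48.

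The class I genes rose over the last step as well. H2-K1 rose by 1.58 ± 0.28 (limma SE, adjusted p = 5.45e-05) and H2-D1 by 1.62 ± 0.29 (adjusted p = 4.35e-05). H2-K1 read 12.54 to 12.92 on the 6 adult arrays, all above the 10.59 to 11.69 of day 3. B2m rose by 0.54 ± 0.10 (adjusted p = 9.46e-05), with stages that met at 12.59. Tap1 rose by 0.37 ± 0.13 (adjusted p = 0.0184). Its call was lost with right ventricles alone (0.35), with only these 2 stages fitted and without day 3 left replicate 3 (0.28). The 3 other Tap1 probe sets gave 0.03 to 0.09 for this step, none called.

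H2-Eb1, the beta chain of H2-E, the other class II molecule, rose by 0.66 ± 0.19 over day 3 (limma SE, adjusted p = 0.00653), a call lost when only these 2 stages were fitted. It read 6.72, 6.87 and 7.85 in adult left and 6.77, 6.92 and 8.26 in adult right ventricles. The highest array was replicate 3 in both ventricles. H2-Ea, the partner alpha chain (chosen for this comparison after its values were seen), read 8.96 and 9.25 on the same arrays and 7.29 to 7.55 on the other 4 adult arrays. H2-Aa was at its lowest adult value, 8.92, in left replicate 3. The macrophage list stood at 7.86 to 8.53 over the 6 adult arrays. Whether replicate 3 of the left and right ventricle came from 1 heart was not stated, and alleles were not tested.

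**Figure D3:**
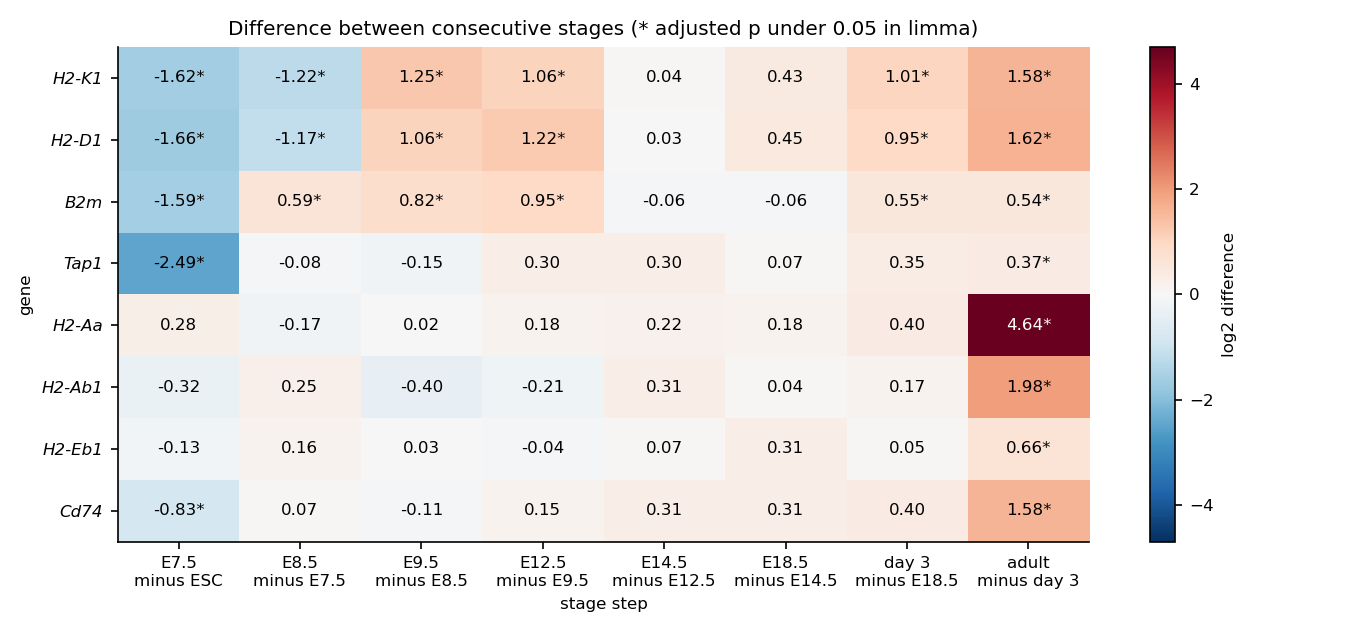
Log2 difference between each stage and the one before it for the 8 genes, with blue for lower and red for higher, and a star where limma's adjusted p was under 0.05. H2-K1, H2-D1 and B2m are starred at 6 of the 8 steps, and H2-Aa, H2-Ab1 and H2-Eb1 at the adult step, where H2-Aa has the value 4.64.

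Set against E9.5, the first stage with separate ventricles, all 8 genes were higher in the adult in the probe sets used. Over all genes 41.6% were called higher and 32.9% lower in this comparison. The rises were 5.62 ± 0.19 for H2-Aa, 4.27 ± 0.29 for H2-D1, 4.11 ± 0.28 for H2-K1, 2.76 ± 0.16 for Cd74, 2.29 ± 0.17 for H2-Ab1, 1.93 ± 0.10 for B2m, 1.39 ± 0.13 for Tap1 and 1.04 ± 0.19 for H2-Eb1 (limma SE, adjusted p from 4.88e-18 to 3.82e-05). The means came near the adult level at different times. By day 3, Tap1 had made 73.5% of its rise in the mean, B2m 71.8%, H2-D1 62.0% and H2-K1 61.7%. Cd74 had made 42.8% and H2-Eb1 37.2%, against 17.4% for H2-Aa and 13.5% for H2-Ab1. These shares describe the means of the probe sets used and were not tested against each other. For adult minus E9.5 the other Tap1 probe sets gave 0.08 to 0.19, none called. The H2-D1 probe sets 1425614_x_at, 1427651_x_at and 1452544_x_at gave -0.64, -0.25 and -0.52, and 1451934_at gave 0.03, none called. The remaining H2-D1 probe sets were called higher. At E9.5 H2-Aa (4.11), H2-Ab1 (5.01) and Tap1 (5.01) lay below the receptor genes' 5.29, where early gains can be compressed, so their shares are not exact. The adult mean of H2-Eb1 leaned on replicate 3, at 7.85 in left and 8.26 in right ventricles. On the other adult arrays H2-Eb1 read 6.72 to 6.92, so its share is not exact either. Scaling the arrays to housekeeping genes shifted the all-gene median up by 0.18 in the adult against day 3 and by 0.35 against E9.5. The 8 genes were called higher in both, but an upward shift favours rises, so these calls do not test them. That scaling also moved the share of rises among calls over all genes from 45.8% to 69.5% and from 55.8% to 72.2% in these comparisons. The share went from 49.1% to 59.9% at E7.5, from 54.1% to 70.8% at E14.5, from 38.7% to 55.9% at E18.5 and from 49.1% to 75% at day 3.

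In order of stage means, H2-K1 ran from 7.33 at E8.5 to 12.69 in the adult, and ESC, at 10.17, lay between E18.5 and day 3. Of its 8 neighbouring pairs of stages in that order 5 overlapped. H2-D1 had the same ends, 7.60 and 12.93, with 4 of 8 overlapping. B2m ran from 9.67 at E7.5 to 13.00 in the adult, with 4 of 8 overlapping. Tap1 was highest in ESC, at 7.73, and reached 6.40 in the adult, below all ESC arrays. Of its pairs 6 of 8 overlapped. In H2-Aa, H2-Ab1 and Cd74 the adult did not overlap its neighbour and the other 7 of 8 pairs did, and in H2-Eb1 8 of 8 overlapped.

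Macrophage and leukocyte genes were measured beside the 8 genes. Of 14 macrophage markers 10 rose and 0 fell from E9.5 to E12.5, and 11 rose and 0 fell from day 3 to the adult. Their mean lay between 4.98 and 5.24 on the E9.5 arrays, 6.35 and 6.49 at E12.5, 6.54 and 6.67 at day 3, and 7.86 and 8.53 in the adult. Among 9 pan-leukocyte markers 8 and 7 rose at these 2 steps. Over all genes 20.1% were called higher and 18% lower at the first step, and 22.3% and 26.4% at the second. Of 6 B cell markers 2 rose and 2 fell in the adult step, of 7 dendritic cell markers 2 rose, and of 7 T and NK cell markers 2 rose. These small counts lay near the shares over all genes. Without the marked arrays 1 dendritic and 1 T and NK cell marker rose. Of 7 neutrophil and mast cell markers 0 rose and 6 fell. From E9.5 the macrophage mean had gained 1.35 by E12.5, when H2-Aa, Cd74 and H2-Ab1 had changed by 0.18, 0.15 and -0.21, none called. In the adult it had gained 3.06. Markers of endothelial cells, which carry much class I, gained 1.17 by day 3 and 0.73 by the adult. The part of these cells in the changes was not tested.

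**Figure D4:**
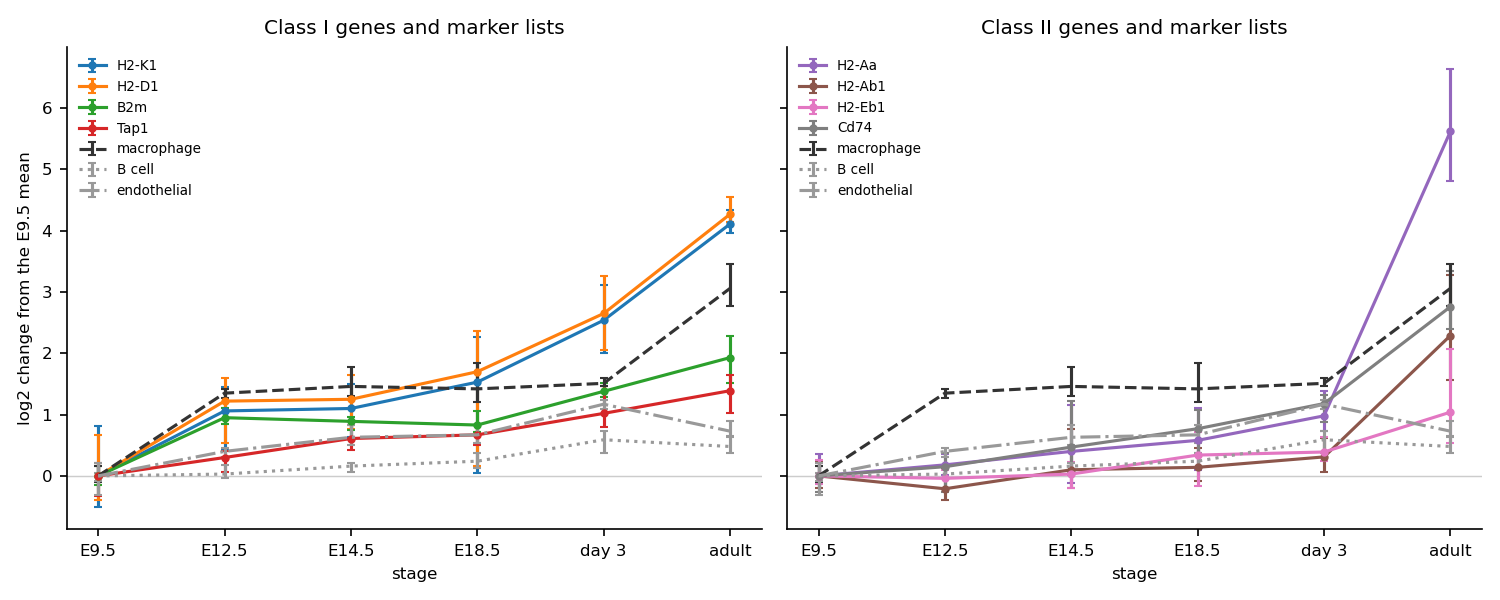
Mean log2 change from the E9.5 mean over 6 arrays per stage, with bars from the lowest to the highest array, for class I genes on the left and class II genes on the right. Dashed, dotted and dash-dotted lines give the means of macrophage, B cell and endothelial markers. Macrophage markers gained 1.35 by E12.5, while H2-Aa gained 0.98 by day 3 and 5.62 by the adult.

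Of 10 measured genes for further class II chains and peptide exchange, 5 rose and 0 fell from day 3 to the adult, and 3 rose and 0 fell from E9.5 to E12.5. Ctss, the cathepsin that degrades the invariant chain, rose by 4.42 ± 0.39 at E12.5 and by 1.18 ± 0.39 in the adult (limma SE, adjusted p = 5.81e-09 and 0.0156). H2-Ea rose by 0.96 ± 0.25 in the adult, where its mean leaned on replicate 3 of both ventricles, as given above. H2-DMa, a subunit of the peptide exchange factor, rose by 0.89 ± 0.14 in the adult. Ciita, the master activator of class II genes, rose by 0.35 ± 0.08 in the adult (adjusted p = 0.00113), from 4.99 to 5.34, beside the receptor genes' 95th percentile of 5.29. Nlrc5, its counterpart for class I, rose by 0.82 ± 0.12 (adjusted p = 2.91e-06), from 3.48 to 4.31, both below that percentile.

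Among all 13 measured regulators 5 rose and 7 fell in the adult step. Those that fell included the CCAAT-binding subunits Nfya, by 0.95 ± 0.08, Nfyc, by 0.63 ± 0.07, and Nfyb, by 0.60 ± 0.07 (limma SE, adjusted p from 1.22e-09 to 1.08e-07), and Irf8, a myeloid factor, by 0.76 ± 0.14 (adjusted p = 5.74e-05). Irf1 rose by 0.76 ± 0.07 (adjusted p = 3.32e-09). Of the peptide supply list 7 rose and 3 fell, with Psmb9 at 1.38 ± 0.14, Erap1 at 1.22 ± 0.13, Psmb8 at 1.18 ± 0.18 and Tap2, the other subunit of the transporter, at 1.03 ± 0.14. The constitutive catalytic subunit Psmb6 fell by 0.29 ± 0.07 (adjusted p = 0.000911). Of 9 genes listed as other class I and class I-like 6 rose and 1 fell. The list held H2-Ke6, which is not a class I molecule and had stage means of 9.47 at day 3 and 9.88 in the adult. H2-M3 rose by 1.03 ± 0.15, and Cd1d1, which presents lipids, fell by 2.62 ± 0.12 (adjusted p = 8.22e-15). Of 11 interferon genes 4 rose and 1 fell, and Ifng differed by 0.13 ± 0.10 (adjusted p = 0.318). Of 7 costimulation and surface turnover genes 3 rose and 1 fell, with Cd274 at 1.37 ± 0.12.

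Left and right ventricles differed in the heavy chains at E18.5. In limma 0 of 8 were called at E9.5, E12.5, E14.5, day 3 and in the adult, where 3.5%, 1.26%, 8.51%, 0.0055% and 0.0165% of all genes were called in either direction, and 0 had an unadjusted p under 0.05 at these stages. Over the mean of 6 stages 2.97% of all genes were called and 0 of 8, with differences from -0.24 to 0.09. At E18.5, where 4.95% were called, H2-D1 was lower in the left ventricle by 1.24 ± 0.33 (limma SE, adjusted p = 0.0238) and H2-K1 by 1.15 ± 0.33 (adjusted p = 0.0344). H2-D1 read 8.83, 10.06 and 10.34 in left and 10.93, 10.99 and 11.03 in right ventricles, so the groups did not overlap and the left arrays were spread widely. Neither call held when only these 2 groups were fitted, or when any 1 of 5 of the 6 arrays was left out, with values from -1.40 to -0.70. Without E18.5 left replicate 3, the lowest array, H2-K1 differed by -0.70 and H2-D1 by -0.78. Without the marked arrays H2-D1 was called (-1.40) and H2-K1 was not (-1.33). With the mean of each gene's probe sets H2-D1 was called higher in the left ventricle (0.41, adjusted p = 0.00733) and H2-K1 was not called (-0.18). With the replicate number as a block H2-Eb1, at 0.56 ± 0.23 without it, was called higher in the left ventricle. The dependence of the left-right difference on the stage was not called for any of the 8 genes (F-test, adjusted p = 0.241 for H2-D1 and 0.302 for H2-K1).

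Markers of immature T cells were higher in the E18.5 left ventricles: Rag1 by 2.76 ± 0.45 and Cd8b1 by 1.22 ± 0.23 (limma SE, adjusted p = 0.000232 and 0.00111). Of 6 thymocyte markers 3 were called higher, with a thymocyte list mean of 4.52 to 5.44 in left and 4.14 to 4.45 in right ventricles. Of 9 pan-leukocyte markers 6 were called higher, of 14 macrophage markers 5 and of 7 neutrophil and mast cell markers 5, and 0 lower. Without the marked arrays the thymocyte count was 2, the pan-leukocyte count 5 and the macrophage count 4. Alb, a liver gene, was higher by 4.54 ± 0.82, and of 9 visceral endoderm genes 3 were called higher, and 0 without the marked arrays. In the same arrays Psmb8 was higher by 0.85 ± 0.21 and Tapbp by 0.56 ± 0.12 (adjusted p = 0.0156 and 0.00379), while B2m differed by 0.17 ± 0.12 and was not called. These were the 2 of 14 peptide supply genes called, and 1 was called without the marked arrays. The part of these cells in the heavy chain difference was not tested.

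Probe sets of H2-D1 fell into kinds with different courses, a grouping made after the values were seen. The annotation gave 28 probe sets to the 8 genes alone, 9 of them to H2-D1, and 3 more were shared with other genes and not used. Class I genes are near copies of each other and vary greatly between mice, and probe sets whose names end in x_at hold probes that match other transcripts. The H2-D1 and H2-K1 probe sets used here were of that kind. The H2-D1 probe sets 1425545_x_at, 1451683_x_at and 1426324_at ran with the one used, with left minus right differences of -1.31 ± 0.32, -1.19 ± 0.31 and -1.04 ± 0.26 at E18.5, all called.

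A further 3 H2-D1 probe sets moved otherwise. The probe set 1425614_x_at read 8.23, 8.48 and 8.92 in left ventricles at E18.5 and 4.46, 4.61 and 5.19 in right ventricles, a left minus right difference of 3.79 ± 0.59 (limma over all probe sets, adjusted p = 0.000165). The sign was opposite to that of the probe set used. At day 3 it read 7.18 to 8.65 in both ventricles, and in the adult 4.83 to 5.70, so that it fell by 2.76 ± 0.51 where the probe set used rose. The probe sets 1427651_x_at and 1452544_x_at did the same, with 2.79 ± 0.48 and 2.04 ± 0.30 at E18.5 and falls of 2.12 ± 0.42 and 1.57 ± 0.27 in the adult. Their correlations with each other over 45 arrays were 0.95 to 0.98, and the r of their mean with the probe set used was -0.04.

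**Figure D5:**
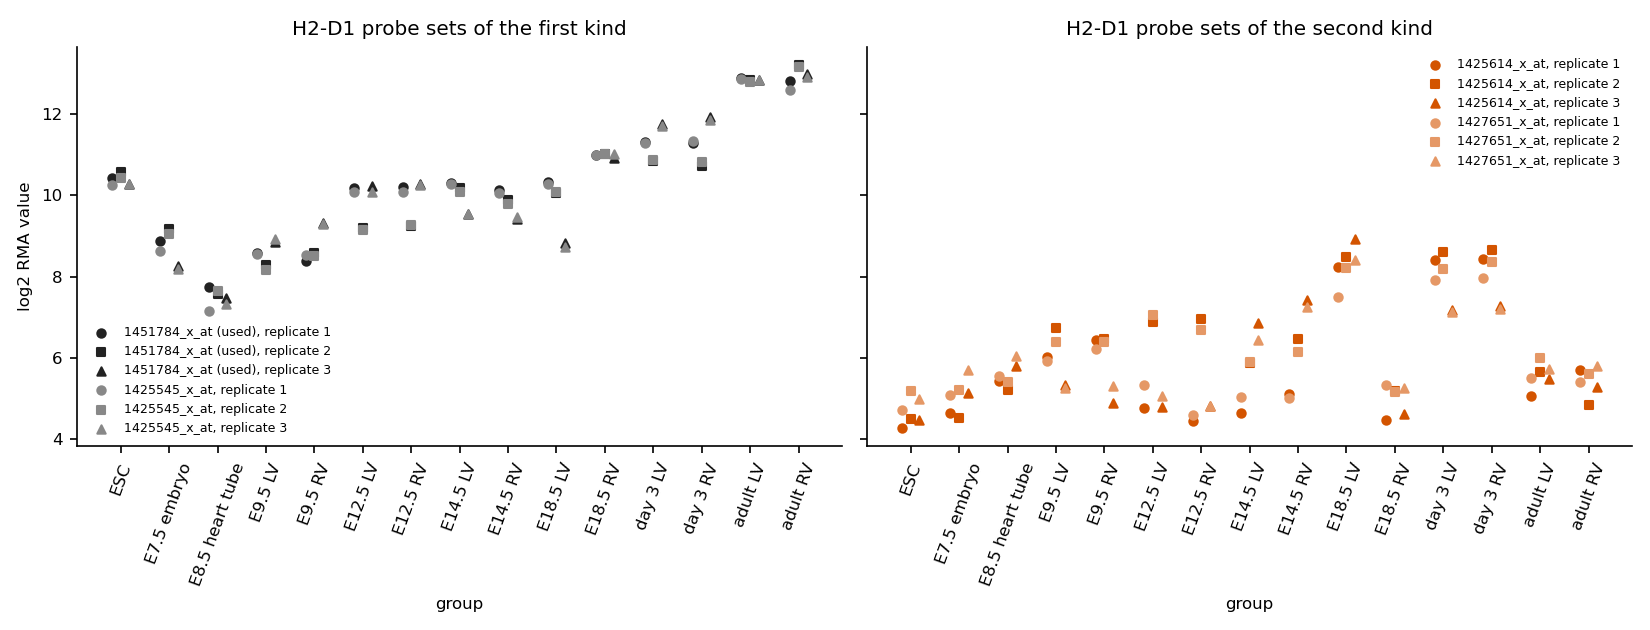
Log2 RMA value of 4 H2-D1 probe sets on each array by group, with circles, squares and triangles for replicates 1, 2 and 3. On the left the probe set used and a second one of its kind climb from E8.5 to the adult. On the right 1425614_x_at and 1427651_x_at are high in E18.5 left and day 3 ventricles and low in E18.5 right and adult ventricles.

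Left and right arrays of 1 number were close to each other in the mean of these 3 probe sets at E9.5, E12.5 and day 3. At E14.5 they were further apart but in the same order. At E9.5 it was 6.52 and 6.83, 7.05 and 6.92, and 5.95 and 5.80. The mean at E12.5 was 7.32 and 7.22 in left and right replicate 2, against 5.27 to 5.66 on the other 4 arrays. At E14.5 replicate 3 was highest in both ventricles, at 6.99 and 7.60, replicate 2 read 6.43 and 6.81, and replicate 1 was lowest, at 5.57 and 5.66. At day 3 the left and right values of 1 number differed little: 8.36 and 8.35, 8.65 and 8.62, 7.59 and 7.58. On the arrays where these probe sets were high within E12.5 or day 3, the probe set used was low, with 9.19 and 9.24 in replicate 2 at E12.5 against 10.18 to 10.27. At E18.5 the numbers did not match, with 8.22 to 8.90 in left and 5.58 to 5.77 in right ventricles. In the adult replicate 2 was highest among left ventricles, at 6.26, and lowest among right ventricles, at 5.70. Genotype was not tested.

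The other H2-K1 probe sets gave no left-right difference at E18.5 that was called. There, 1425336_x_at read 9.51 to 9.70 in left and 9.46 to 9.61 in right ventricles, a difference of 0.07 ± 0.15, and it rose by 1.00 ± 0.12 in the adult and by 0.94 ± 0.12 at day 3 (limma over all probe sets, adjusted p = 1.16e-07 and 3.57e-06). From E8.5 to E9.5 it fell, as given above, where the probe set used rose. The adult rise of H2-K1 was called in all 4 probe sets, the day 3 rise in 3 of 4, and the E18.5 ventricle difference in the one used alone. The second B2m probe set ran with the first (r = 0.99 over 45 arrays) and rose by 0.62 ± 0.10 in the adult. For H2-Aa 2 other probe sets rose by 3.58 ± 0.19 and 1.77 ± 0.14 in the adult, and a dim one by 0.26 ± 0.09.

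Genes with the most similar profile were named over 15 group means, among 10327 genes that spanned at least 1 log2 unit, with the 8 genes themselves left out. For Tap1 these were Bcl3 (r = 0.984), Tapbpl (0.98), a relative of tapasin, and Irf1 (0.97). For H2-Aa they were Ifi204, Retnla and Mfsd4a (0.996 each), for Cd74 Lpin1 (0.991), Adap2 (0.99) and Nr1d1 (0.989), for H2-Ab1 Cd209f (0.971), Prg4 and Mrgprh, and for H2-Eb1 C1ra (0.971), Ccl6 and Omd. B2m ran closest to Scarb2 (0.979), Kremen1 and Sorbs3. Outside the 8 genes, H2-K1 ran closest to Rusc2 (0.967), Pde4a and Trim62, and H2-D1 to Rusc2 (0.969), Fnip1 and Trim62. These correlations are descriptions over group means that share a developmental order. Among the 8 genes, H2-K1 and H2-D1 had r = 1.0 over the groups, above any of these. H2-Aa and H2-Ab1 had r = 0.96, H2-Aa and Cd74 0.94, and B2m and Tap1 0.40.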

How the data were processed

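Expression was measured on Affymetrix mouse arrays from biotin-labelled cRNA. The authors deposited 1 table of log2 values for 45101 probe sets on 45 arrays, made with RMA per the submitters' processing notes (version not given in the sources used here). RMA corrects background on each array and fits quantiles and probes over all arrays together. Arrays therefore share a scale, and a global shift between stages is removed. The values were used as deposited. After 64 control probe sets were left out, 34945 probe sets had 1 gene symbol in the platform annotation, 932 had several and 9160 had none, and 34741 matched RefSeq genes. The probe set with the highest mean stood for each of 18193 genes.

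Stage steps were fitted with limma 3.58.1 (R 4.3.3) on 27 values, with left and right ventricles of 1 number averaged, and left against right on 45 arrays in 15 groups, with 18 and 30 residual degrees of freedom. The fits were tested on simulated data. The number of arrays limits the precision. The labels call the replicates biological and do not say whether same-numbered ventricles share hearts. Same-numbered ventricles deviated together at E12.5 (r = 0.271, 0.321 and 0.369 over genes), which comes from the data and not the labels. At E9.5 the lowest r was 0.0713, and at E18.5 r ran from -0.318 to -0.155. For replicates 1, 2 and 3 it was -0.119, -0.139 and 0.11 at E14.5 and 0.167, 0.0274 and 0.0912 at day 3. In the adult it was 0.223, 0.33 and -0.0956. No 2 arrays held identical values. Per the labels' protocols, hearts of the 2 postnatal stages were first frozen and then ground to powder for RNA, so this handling and age cannot be told apart.

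The genes, lists and tests were chosen with earlier results of these data known. Named genes were all 8 members, up to 4 called genes with the largest change per list and comparison, genes whose role a sentence needed (chosen after their values were seen), and the 3 genes nearest to each member by correlation. Listed genes with no matching symbol were not analysed here. Promoters were aligned with Biopython 1.88. The alternatives are given at the end.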

Additional observations from a re-analysis of the deposited data

Results flagged for a closer look

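The dependence of the left minus right difference on the stage was called for 3 probe sets of H2-D1 other than the one used. The adjusted p of limma's F-test over all probe sets was 0.0069 for 1425614_x_at, 0.0223 for 1427651_x_at and 0.00601 for 1452544_x_at, and 0.275 for the probe set used. All 3 were higher in the left ventricle at E18.5, by 3.79 ± 0.59, 2.79 ± 0.48 and 2.04 ± 0.30. Their values share most of their course and are not independent.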

How the results depend on the processing

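With trended robust eBayes all 128 results kept their direction and call. The count of the 8 genes called moved by over 1.5 times in 4 comparisons. At E14.5 it went from 0 to 1 with only the groups compared, with arrays as separate samples and with the replicate block with an estimated correlation. At E18.5 against E14.5 it went from 0 to 1 with only the groups compared, with the mean of a gene's probe sets, without the marked arrays and with left ventricles alone, to 2 with right ventricles alone and, chosen after seeing the data, without the E18.5 left ventricles, and lay between 0 and 2 with each array left out. At day 3 it went from 3 to 5 with only the groups compared, housekeeping scaling, arrays as separate samples and the replicate block, and to 1 at an adjusted p under 0.01. For left minus right at E18.5 it went from 2 to 0 with only the groups compared and at 0.01, to 1 with housekeeping scaling and without the marked arrays, and to 1 with the mean of probe sets, where the call was H2-D1 higher in the left ventricle, and lay between 0 and 2 with each array left out; the replicate block gave 3. Smaller moves were from 5 to 6 at E7.5 and from 3 to 4 at E9.5 with only the groups compared (H2-Ab1), and from 5 to 6 and 3 to 2 with the mean of probe sets. At E12.5 Tap1 took the count from 3 to 4 under 5 alternatives, among them without the marked arrays. At day 3 the count was also 4 without the marked arrays, without the E18.5 left ventricles and with the filter on dim genes, 2 with right ventricles alone, and 2 to 4 with each array left out. In the adult step 8 became 6 with only the groups compared (Tap1 and H2-Eb1 lost) and 7 with the mean of probe sets (H2-D1 lost), with right ventricles alone and at 0.01 (Tap1 lost), and 7 to 8 with each array left out.

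Directions reversed with the mean of probe sets for H2-D1 (adult minus day 3 -0.03, left minus right at E18.5 0.41, called) and with other probe sets. For H2-K1, 1425336_x_at gave -0.32 (E9.5 minus E8.5) and 0.07 (left minus right at E18.5), 1427746_x_at -0.48 and 0.29, and 1450534_x_at 0.08 for the latter. For H2-D1 at E7.5, E8.5, E12.5, adult minus day 3, adult minus E9.5 and left minus right, 1425614_x_at gave 0.36, 0.71, -0.54, -2.76, -0.64 and 3.79, 1427651_x_at 0.36, 0.34, -0.33, -2.12, -0.25 and 2.79, and 1452544_x_at 0.14, 0.73, -0.36, -1.57, -0.52 and 2.04, with -0.15 at E9.5. H2-D1 1450170_x_at gave -0.00 at E9.5 and -0.07 at day 3, and 1451934_at -0.14 at E9.5, -0.00 at E12.5 and -0.06 in the adult. The cause was not tested.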
